A study of Mus musculus with 10 samples.

Results

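Malat1, Meg3, Neat1, Miat, Rian, Mirg, Snhg11 and Snhg14 are long noncoding RNAs known for staying largely in the nucleus. These 8 genes were chosen by name, and all 8 were among the 19268 genes tested of 53700 gene identifiers counted. They were measured by 3′ RNA sequencing in the cortex of 10 female mice aged 4 months, 5 labelled 5XFAD and 5 labelled 5XFAD;Neu cKO. Every mouse carried the 5XFAD transgenes, which are human genes with mutations of familial Alzheimer's disease driven by mouse Thy1 sequence. The mice labelled 5XFAD;Neu cKO carried floxed Idol alleles and Camk2a-Cre, which acts in forebrain excitatory neurons, so glia and most inhibitory neurons are outside its reach. The mice labelled 5XFAD were littermates from the same cross, marked WT in the labels, which do not spell out their Idol and Cre alleles. The comparison asks which transcripts differ in the cortex when Idol, an E3 ubiquitin ligase that sends the LDL receptor to degradation, is removed from these neurons.

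Malat1 concentrates at nuclear speckles, bodies rich in splicing factors, and Neat1 is the scaffold of paraspeckles, bodies built on RNA-binding proteins such as NONO and SFPQ. Meg3, Rian and Mirg lie in this order in the imprinted Dlk1-Dio3 region, are expressed from the maternal chromosome and host small RNAs. Miat, also called Gomafu, is a neuronal RNA that binds splicing factors, Snhg11 is a neuron-rich host of small nucleolar RNAs, and Snhg14 is the long imprinted RNA that runs antisense through Ube3a and silences its paternal copy in neurons.

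The kit primes reverse transcription at stretches of A, so a count reflects an RNA's A-rich sites rather than its length. The following stretches show where such priming could start in the RNAs the results turn on. They were read from GRCm39 on the strand of the gene, and capitals mark the longest run of A in the exons of Malat1 (chr19:5845976-5846067, minus strand) and Meg3 (chr12:109511163-109511262, plus strand).
Malat1 A-rich tract: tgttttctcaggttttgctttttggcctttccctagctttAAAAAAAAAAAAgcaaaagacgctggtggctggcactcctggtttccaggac
Meg3 internal run: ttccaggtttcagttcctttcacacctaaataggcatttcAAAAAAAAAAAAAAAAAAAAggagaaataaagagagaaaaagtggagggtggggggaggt
The run of 12 A in Malat1 lies 299 bases before the annotated end of the gene, in the tract where the mature RNA is known to be cut rather than polyadenylated. The run of 20 A in Meg3 lies 26943 bases before the annotated end. It falls within the downstream Meg3 promoter described below, so Meg3 RNAs that start from that promoter may lack it. Runs of at least 12 A were found in the exons of 5 members, namely 1 in Malat1, 4 in Meg3, 1 in Rian, 1 in Mirg and 2 in Snhg14. Neat1, Miat and Snhg11 had none, their longest runs being 7, 5 and 9. Of the 19154 tested genes found in the annotation, 21.8% held such a run. Which of these sites gave the reads cannot be read from counts per gene.

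The last 60 annotated bases of the same RNAs and of Neat1 are shown for the polyadenylation signal AATAAA, in capitals, on the strand of the gene (GRCm39, chr19:5845717-5845776 minus for Malat1, chr12:109538106-109538165 plus for Meg3, chr19:5874736-5874795 minus for Neat1).
Malat1 end: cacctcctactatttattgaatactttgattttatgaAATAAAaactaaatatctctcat
Meg3 end: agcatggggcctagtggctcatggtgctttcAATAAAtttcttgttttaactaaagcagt
Neat1 end: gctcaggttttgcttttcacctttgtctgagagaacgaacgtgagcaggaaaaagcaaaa
The signal stood in the last 60 bases of Malat1, Meg3, Rian, Mirg and Snhg11, against 52.1% of the 19154 genes. It was not in the last 60 bases of Neat1, Miat or Snhg14. Signals elsewhere in a gene were not searched, so these genes may hold the signal at another place.

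Reads on genes numbered from 4320504 to 7466192 per library. Mylip, the gene of IDOL, was counted 45 to 108 times in the libraries labelled 5XFAD and 50 to 148 times in those labelled 5XFAD;Neu cKO, with a log2 fold change of 0.39 (SE 0.25, edgeR's quasi-likelihood test, adjusted p = 0.777). Its reads were thus not fewer where the label gives its deletion, but whether these 3′ reads lie in the deleted part is not given in the sources used here, so they may check nothing. Groups here follow the sample titles, which give 5XFAD, Idol and Camk2a-cre for every sample and mark it WT or cKO. Libraries called labelled 5XFAD are those titled WT. Those called labelled 5XFAD;Neu cKO, which is the study's name for the group, are those titled cKO. Mitochondrial reads made up 20.2% to 21.1% of the counted reads in 5 libraries, 4 labelled 5XFAD;Neu cKO (replicates 2 to 5) and 1 labelled 5XFAD (replicate 5), and 23.3% to 25.1% in the other 5. Reads on no gene made up 31.3% to 39.9% of those kept. Microglial transcripts differed between the labels, and their values stand beside Neat1 below.

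None of the 8 long noncoding RNAs passed the threshold of an adjusted p of 0.05 (edgeR's quasi-likelihood test, Benjamini-Hochberg adjustment over 19268 genes), a threshold that 0.218% of all genes tested passed. Malat1 and Miat were 2 of the 8 members with an unadjusted p under 0.05, both higher under the label 5XFAD;Neu cKO, against 7.95% of all genes in either direction and 3.94% in this direction. No member had groups that did not overlap, against 1.30% of all genes. The median log2 fold change of the 8 members was 0.07, with 6 higher and 2 lower, beside -0.001 over all genes tested. Over the 1878 long noncoding genes tested the median was 0.049, with none called by edgeR or DESeq2 at the adjusted threshold and 136 at an unadjusted p under 0.05. Over the 125 of these with a mean of at least 10 CPM (counts scaled to a common library size) it was 0.058, with none called by edgeR at the adjusted threshold and 21 at an unadjusted p under 0.05.

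**Figure D1:**
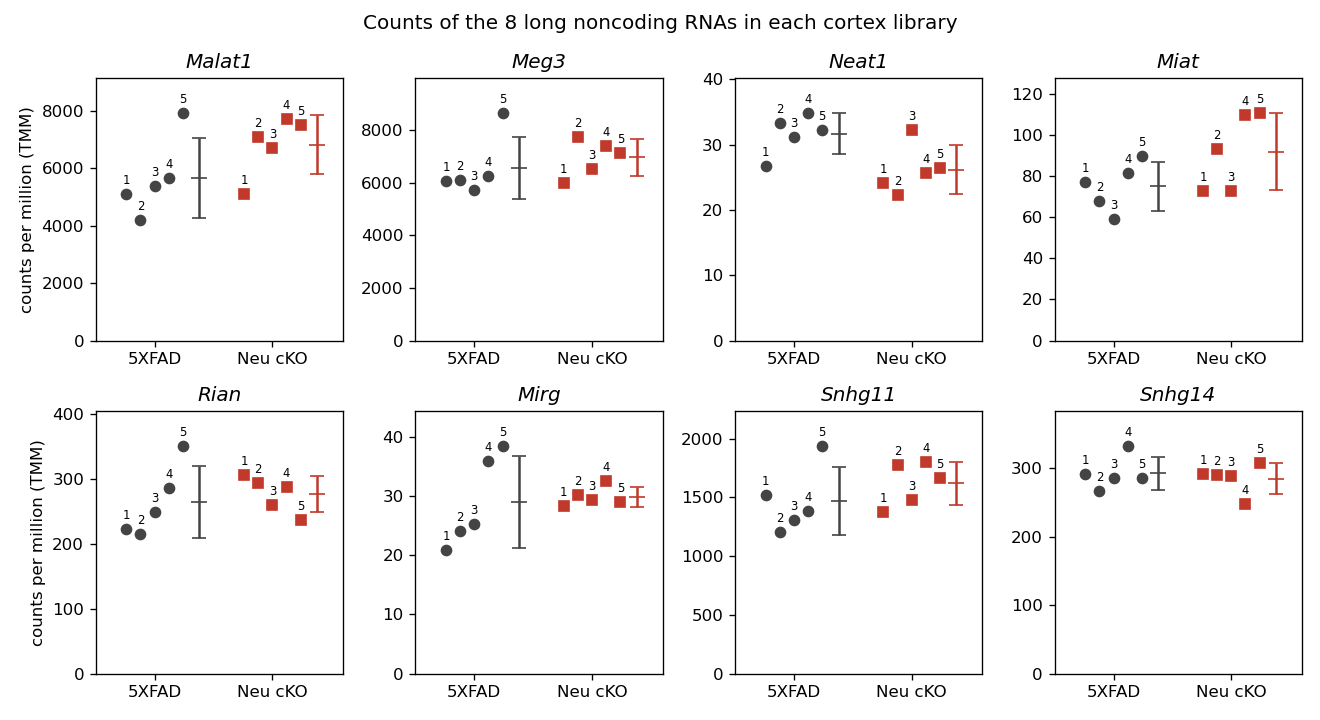
Each panel shows 1 long noncoding RNA, with CPM after TMM scaling on the vertical axis, 5 libraries labelled 5XFAD as grey circles, 5 labelled 5XFAD;Neu cKO as red squares, replicate numbers beside the points and mean ± SD as bars. The groups overlap in all 8 panels, and replicate 5 of 5XFAD is the highest library for Malat1, Meg3, Rian, Mirg and Snhg11.

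Malat1 (ENSMUSG00000092341, GRCm39 chr19:5845717-5853602, minus strand) stood at 5097, 4203, 5387, 5659 and 7945 CPM in replicates 1 to 5 labelled 5XFAD. In the libraries labelled 5XFAD;Neu cKO it stood at 5120.0, 7087, 6727, 7712 and 7497 CPM. Replicates 2 to 5 labelled 5XFAD;Neu cKO and replicate 5 labelled 5XFAD were high, the other 5 libraries were low, and the groups overlapped. The means were 5658 ± 1391 and 6829 ± 1028 CPM (SD, n = 5 each), a log2 fold change of 0.27 with a 95% interval of 0.095 to 0.45. The adjusted p was 0.292 (edgeR), and an exact two-sided permutation test over every relabelling of the libraries, whose smallest p is 0.00794, gave p = 0.159. Malat1 was thus not called, and whether it passed depended on the libraries used and on settings given in the closing section. The adjusted p by edgeR became 0.000701, with a log2 fold change of 0.42, without 5XFAD replicate 5, and 0.0237 with 0.36 without 5XFAD;Neu cKO replicate 1.

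The libraries in which Malat1 was high were those with the lower mitochondrial share. Among the 5 libraries under 22% mitochondrial reads, Malat1 stood at 7945 CPM in the 1 library labelled 5XFAD and at 6727 to 7712 CPM in the 4 labelled 5XFAD;Neu cKO. Among the 5 libraries over 22%, it stood at 4203 to 5659 CPM in the 4 labelled 5XFAD and at 5120.0 CPM in the 1 labelled 5XFAD;Neu cKO. In the first set the lone library was above the 4 others, and in the second it lay among the other 4. With 1 library in a group, no test within a set was made. With this set as a further term in edgeR, a fit chosen after seeing the data, the log2 fold change of Malat1 was -0.061 (SE 0.067, adjusted p = 0.988). Because 4 of 5 libraries of each label fall in opposite sets, the set and the label are largely confounded.

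Meg3 (ENSMUSG00000021268, GRCm39 chr12:109506877-109538165, plus strand) stood at 6073, 6086, 5715, 6266 and 8664 CPM in the libraries labelled 5XFAD. In those labelled 5XFAD;Neu cKO it stood at 6004, 7751, 6519.6, 7403 and 7118 CPM. Replicate 5 labelled 5XFAD was above every other library, and 4 of 5 libraries labelled 5XFAD;Neu cKO were above the 5XFAD median of 6086 CPM. The log2 fold change was 0.085 (95% interval -0.058 to 0.23, adjusted p = 0.871 by edgeR), so that changes from a 3.94% decrease to a 17.1% increase lie within the interval. With the mitochondrial set as a term it was -0.14 (SE 0.061, adjusted p = 0.776 by edgeR).

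Snhg11 (ENSMUSG00000044349, GRCm39 chr2:158217558-158228071, plus strand), the third of the most counted members, stood at 1518, 1201, 1304, 1382 and 1940.2 CPM in the libraries labelled 5XFAD. In those labelled 5XFAD;Neu cKO it stood at 1379, 1775, 1481, 1798 and 1665 CPM. The order of the libraries was like that of Malat1, with replicate 5 labelled 5XFAD highest and overlapping groups. The log2 fold change was 0.14 (95% interval -0.024 to 0.31, adjusted p = 0.734 by edgeR), and -0.09 with the mitochondrial set as a term (SE 0.078, adjusted p = 0.979).

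Neat1 (ENSMUSG00000092274, GRCm39 chr19:5874736-5897132, minus strand) had a log2 fold change of the opposite sign to that of its neighbour Malat1, from which 21133 bases separate it. Neither was called, and with the mitochondrial set as a term both were negative. Neat1 stood at 26.7, 33.3, 31.2, 34.9 and 32.3 CPM in the libraries labelled 5XFAD, from 138 to 230 reads. In those labelled 5XFAD;Neu cKO it stood at 24.1, 22.3, 32.3, 25.7 and 26.4 CPM, from 121 to 246 reads. Of the libraries labelled 5XFAD;Neu cKO, 4 were below every library labelled 5XFAD, and replicate 3 lay among them. The means were 31.7 ± 3.07 and 26.2 ± 3.79 CPM (SD, n = 5 each), a log2 fold change of -0.27 with a 95% interval of -0.59 to 0.046. The adjusted p was 0.734 by edgeR, and the exact two-sided permutation test of this single gene gave p = 0.0317, unadjusted for the 8 members. The log2 fold change stayed between -0.36 and -0.22 with each library left out in turn, and was -0.33 (SE 0.21, adjusted p = 0.961 by edgeR) with the mitochondrial set as a term.

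All 14 microglial markers tested were also lower under the label 5XFAD;Neu cKO. Their median log2 fold change was -0.589, and 6 were past the adjusted threshold by edgeR. Their summed level was 493 to 723 CPM in the libraries labelled 5XFAD and 339 to 428 CPM in those labelled 5XFAD;Neu cKO. Ctss, a lysosomal protease of microglia, fell by 0.91 on the log2 scale (SE 0.11, adjusted p = 5.24e-07 by edgeR), and the others were C1qb (-1.21), Tyrobp (-1.1), C1qc (-0.82), Csf1r (-0.65) and Cx3cr1 (-0.51). The next 2 by p, Trem2 and C1qa, had log2 fold changes of -0.96 and -0.44 (adjusted p = 0.0994 and 0.39 by edgeR). Among 10 astrocyte markers 9 were lower and 1, the intermediate filament gene Gfap, passed, with a log2 fold change of -0.88 (SE 0.17, adjusted p = 0.00202 by edgeR). All 10 oligodendrocyte markers were lower and 1, the myelin gene Mal, passed, with a log2 fold change of -0.48 (SE 0.11, adjusted p = 0.0427 by edgeR). The part of these cell types in the level of Neat1 was not tested, and in bulk tissue fewer cells of a type and less RNA per cell cannot be told apart. None of the 12 markers of excitatory neurons, 10 of inhibitory neurons or 10 of all neurons passed the adjusted threshold by edgeR, with 2, 3 and 3 of them at an unadjusted p under 0.05. Their median log2 fold changes were 0.011, -0.09 and -0.044. By DESeq2, 1 of them passed, Syt1 of the synaptic vesicle, at a log2 fold change of -0.2. Neurod2 and Slc17a6 had the smallest p of the excitatory markers (0.32 and -0.39) and Lhx6 and Vip of the inhibitory ones (1.04 and -0.42). Snap25, a synaptic fusion protein gene, had a log2 fold change of 0.25 (SE 0.081, adjusted p = 0.287 by edgeR). The next by p among glial markers were Aldh1l1 (-0.45) and S100b (-0.23) of astrocytes and Mobp (-0.43) and Mbp (-0.28) of oligodendrocytes. None of the 6 markers of oligodendrocyte precursors or 11 of endothelial and mural cells passed by edgeR or DESeq2, or had an unadjusted p under 0.05, the nearest being Cspg4 (0.25) and Sox10 (-0.2) in the first and Kdr (0.34) and Vtn (0.2) in the second.

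Miat (ENSMUSG00000097767, GRCm39 chr5:112361094-112377261, minus strand) stood at 77.1, 68, 59.2, 81.8 and 89.8 CPM in the libraries labelled 5XFAD. In those labelled 5XFAD;Neu cKO it stood at 72.7, 93.4, 72.9, 110.0 and 111 CPM. Of the latter 3 were above every library labelled 5XFAD and 2 lay among them. The exact two-sided permutation test of this single gene gave p = 0.151, unadjusted for the 8 members. The means were 75.2 ± 11.9 and 92 ± 18.9 CPM (SD, n = 5 each), a log2 fold change of 0.29 with a 95% interval of 0.05 to 0.54 (adjusted p = 0.483 by edgeR). With the mitochondrial set as a term it was 0.067 (SE 0.14, adjusted p = 1 by edgeR). Of the 4 splicing factor genes listed as Miat partners none passed, and Qk, an RNA-binding protein of glia and the gene with the smallest p, had a log2 fold change of -0.2 (SE 0.08, adjusted p = 0.475 by edgeR), with Sf1 next at 0.18.

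**Figure D2:**
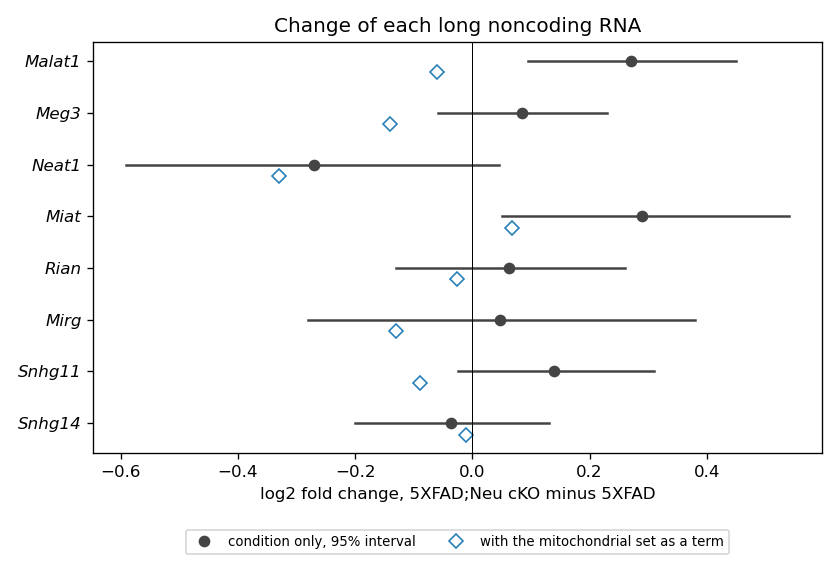
Log2 fold changes of the 8 long noncoding RNAs, libraries labelled 5XFAD;Neu cKO minus those labelled 5XFAD, with 95% intervals from edgeR as grey lines. Open blue diamonds are the fits with the mitochondrial set as a further term, in which Malat1 moves from 0.27 to -0.061 while Neat1 moves from -0.27 to -0.33.

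The imprinted RNAs downstream of Meg3 showed no difference larger than the spread between libraries. Rian (ENSMUSG00000097451, GRCm39 chr12:109570242-109628150, plus strand) stood at 222, 215, 249, 285 and 351 CPM in the libraries labelled 5XFAD. It stood at 306, 293, 259, 288 and 236 CPM in those labelled 5XFAD;Neu cKO, all within the 5XFAD range. Its log2 fold change was 0.062 (95% interval -0.13 to 0.26, adjusted p = 0.958 by edgeR). Mirg (ENSMUSG00000097391, GRCm39 chr12:109696198-109715898, plus strand), the host of a cluster of microRNAs, stood at 20.9, 24.2, 25.3, 36 and 38.6 CPM in the libraries labelled 5XFAD. It stood at 28.4, 30.2, 29.4, 32.6 and 29 CPM in those labelled 5XFAD;Neu cKO, again all within the 5XFAD range. Its log2 fold change was 0.048 (95% interval -0.28 to 0.38, adjusted p = 0.984 by edgeR). The coefficient of variation of Mirg was 26.9% in the 5 libraries labelled 5XFAD and 5.49% in those labelled 5XFAD;Neu cKO, a difference in spread that was not tested.

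Meg3, Rian and Mirg share an orientation, with 32076 bases between the first pair and 68047 between the second. The annotation places 2 microRNAs inside Meg3, 4 microRNAs and 13 small nucleolar RNAs inside Rian and 14 microRNAs inside Mirg, and reads on these small RNAs numbered 17 in all libraries for Rian and 0 for the others. RefSeq lists 2 promoters for Meg3, and the upstream one (GRCm38.p6, chr12:109540746-109541045, plus strand) is shown because it alone of the members' promoters used here holds all 3 motifs searched, with the cyclic AMP response element TGACGTCA in capitals.
Meg3 promoter: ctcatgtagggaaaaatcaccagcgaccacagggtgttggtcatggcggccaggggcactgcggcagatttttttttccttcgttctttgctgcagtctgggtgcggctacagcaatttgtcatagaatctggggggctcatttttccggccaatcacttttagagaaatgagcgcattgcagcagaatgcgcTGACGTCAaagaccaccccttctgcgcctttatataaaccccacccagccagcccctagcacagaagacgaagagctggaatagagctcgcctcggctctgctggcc
This element, searched on both strands, was in 1.79% of the 32851 RefSeq promoters of this length. TATAAA and CCAAT were in the same promoter, and in 13.6% and 37.4% of all promoters on either strand. The downstream Meg3 promoter (chr12:109545148-109545447) held none of these motifs. None of the RefSeq promoters listed for Rian, Mirg, Malat1, Miat, Snhg11 or Snhg14 held TGACGTCA or TATAAA, while those of Mirg and Snhg14 held CCAAT. Neat1 was not among the promoters used here.

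Across the 10 libraries Rian and Mirg varied together, with a Pearson's r of 0.82 between their log2 CPM (permutation p = 0.00328, adjusted p = 0.0131 over 4 pairs) and a Spearman's rho of 0.73 (permutation p = 0.0202, adjusted p = 0.0404). Without the 2 libraries farthest from the median r was 0.70 (permutation p = 0.0558, adjusted p = 0.223), so the relation was weaker and no longer past the threshold over the 8 libraries left. Meg3 and Mirg gave r = 0.68 (permutation p = 0.0292, adjusted p = 0.0585) with rho = 0.76 (permutation p = 0.0145, adjusted p = 0.0404), and r = 0.51 (permutation p = 0.188) without the 2 farthest libraries. Meg3 and Rian gave r = 0.62 (permutation p = 0.0622, adjusted p = 0.0829) with rho = 0.47 (permutation p = 0.176, adjusted p = 0.235), and r = 0.17 (permutation p = 0.666) without them. Malat1 and Neat1, the other neighbours, gave r = -0.25 (permutation p = 0.477, adjusted p = 0.477) with rho = -0.19 (permutation p = 0.608, adjusted p = 0.608). Without the 2 farthest libraries r was -0.25 (permutation p = 0.549). High r was not limited to neighbours. Members on different chromosomes gave 0.92 for Meg3 with Snhg11, 0.9 for Malat1 with Snhg11 and 0.84 for Malat1 with Meg3. Others did not vary together, such as Meg3 with Snhg14 at -0.17. The r between members on different chromosomes were not tested.

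Of the other genes in or beside the Dlk1-Dio3 region, 8 were tested and none passed the adjusted threshold by edgeR, with 1 at an unadjusted p under 0.05. That gene was Dlk1, which codes for a ligand-like protein and is paternally expressed in the imprinted region, at 43.8 ± 14.5 and 28.9 ± 8.79 CPM (SD, n = 5 each). Its log2 fold change was -0.59 (SE 0.18, adjusted p = 0.233 by edgeR). Wars1, next by p, had a log2 fold change of 0.2 (SE 0.17, adjusted p = 0.871 by edgeR). Rtl1 and Dio3 had few reads, 0 to 9 and 1 to 15 per library, so little can be read from them.

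Snhg14 (ENSMUSG00000100826, GRCm39 chr7:58957672-59628040, minus strand) varied least of the 8 members. It stood at 291, 267, 286, 333 and 285 CPM in the libraries labelled 5XFAD and at 291, 289.9, 288, 247 and 308 CPM in those labelled 5XFAD;Neu cKO. The highest library was labelled 5XFAD and the lowest 5XFAD;Neu cKO, and the others lay together. The log2 fold change was -0.037 (95% interval -0.2 to 0.13, adjusted p = 0.973 by edgeR), a range from a 13.1% decrease to a 9.25% increase. The gene spans 670369 bases with 208 small nucleolar RNA genes inside. It overlaps Ube3a, a ubiquitin ligase gene on the opposite strand, and 4 other counted genes, and since the strand setting of the counting is not stated, its reads and those of these genes may not be fully separated. Ube3a stood at a mean of 273 CPM in the libraries labelled 5XFAD and 263 CPM in those labelled 5XFAD;Neu cKO (log2 fold change -0.055, SE 0.081, adjusted p = 0.956 by edgeR). None of the 10 tested genes of the Snhg14 locus passed by edgeR, and none had an unadjusted p under 0.05.

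The members differed widely in level. By mean CPM, Meg3 ranked 8 and Malat1 9 of 19268 genes, Snhg11 29, Snhg14 336 and Rian 372, while Miat ranked 1792, Mirg 4849 and Neat1 4910. Per kilobase of exon, the order was Malat1 at 792 CPM per kb, Meg3 at 350.1, Snhg11 at 181, Snhg14 at 10.1, Rian at 8.46, Miat at 7.93, Mirg at 3.05 and Neat1 at 1.29, although with 3′ counting length does not set the count. By mean CPM, Malat1, Meg3 and Snhg11 were thus the most counted members. Snhg14 and Rian came next, and Mirg and Neat1, at the near ranks 4849 and 4910, were the lowest. Because a count reflects an RNA's A-rich sites, this order need not be that of the amounts of RNA.

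The 8 members together took 1.26%, 1.1%, 1.29%, 1.38% and 2% of the counted reads in the libraries labelled 5XFAD. They took 1.28%, 1.83%, 1.62%, 1.79% and 1.8% in those labelled 5XFAD;Neu cKO. The share was 1.62% to 2% in the 5 libraries under 22% mitochondrial reads and 1.1% to 1.38% in the 5 over it. Counted among reads outside the mitochondrial chromosome alone, it was 2.04% to 2.52% and 1.46% to 1.84%, so these sets did not overlap on either scale. The sets were formed from the mitochondrial share after seeing the data, and no test was made between them.

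**Figure D3:**
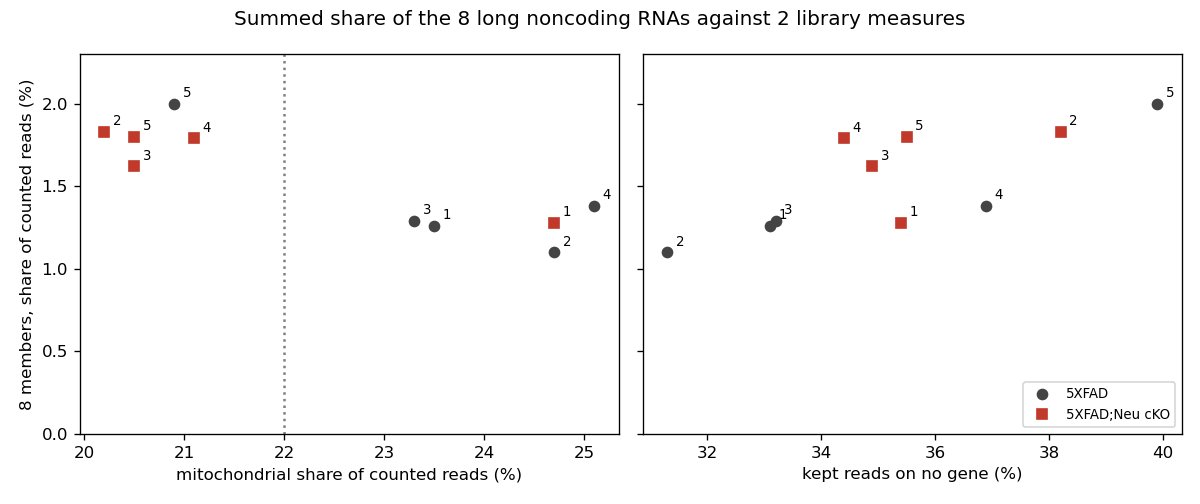
Both panels show the summed share of the 8 long noncoding RNAs in the counted reads of each library (vertical axis, percent), against the mitochondrial share of counted reads on the left and the share of kept reads on no gene on the right. Grey circles are libraries labelled 5XFAD, red squares those labelled 5XFAD;Neu cKO, numbers are replicates and the dotted line is at 22%, to the left of which all 5 libraries lie at 1.62% or more. Malat1 and Meg3, the members with the most reads, weigh most in this share.

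Levels of 5 members also moved with the share of reads placed on no gene. Over the 10 libraries Pearson's r with this share, chosen after seeing the data, was 0.84 for Rian (permutation p = 0.00268, adjusted p = 0.0214 over 8 relations), 0.81 for Mirg (0.00536, adjusted p = 0.0214 by permutation), 0.77 for Meg3 (0.0127, adjusted p = 0.034), 0.72 for Snhg11 (0.0201, adjusted p = 0.0379) and 0.69 for Malat1 (0.0237, adjusted p = 0.0379). Spearman's rho was 0.59 to 0.81 for these members, with adjusted permutation p from 0.0603 to 0.129. Without the 2 libraries farthest from the median, r was 0.34 to 0.67 (permutation p from 0.0525 to 0.399), so the relations were weaker, and none had a p under 0.05, over the 8 libraries left. For Miat, Snhg14 and Neat1 r was 0.47, 0.37 and -0.14 (adjusted permutation p = 0.233, 0.335 and 0.696). The part of these reads in the levels was not tested.

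As a description over the 10 libraries, with no test, the genes of at least 10 CPM whose log2 CPM was most like each member's were sought among 8841 genes. Malat1 was followed most closely by Ppip5k1 (r = 0.969), Sec22a (0.967) and Snrnp70 (0.951), and Snhg11 by Pnisr (0.97), Ppip5k1 (0.937) and Gtf3c2 (0.936). Meg3 was nearest to Kalrn (0.916), Foxo3 (0.886) and Pnisr (0.884). For Rian these were Col11a1 (0.928), Tra2a (0.916) and Man2c1 (0.916), and for Mirg Sfswap (0.95), the pseudogene Gm20386 (0.935) and Mat2a (0.918). Ppip5k1 and Pnisr each stood near 2 members. Neat1 was nearest to Slc5a3 (0.907), the astrocyte gene Aldh1l1 (0.877) and Sema6d (0.872). Miat was nearest to 1810030O07Rik (0.941), Tmem191 (0.911) and Mlycd (0.867), and Snhg14 to Rwdd1 (0.929), Ndufaf7 (0.883) and Pbx3 (0.848). These points share library, depth and composition.

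The genes of proteins that work with these RNAs showed small differences in their RNA counts, none past the adjusted threshold by edgeR. Of 22 genes of nuclear speckle proteins, none passed the adjusted threshold by edgeR, 19 were higher and 3 lower under the label 5XFAD;Neu cKO, and the median log2 fold change was 0.115. The 2 with an unadjusted p under 0.05 were Clk4, a kinase of splicing factors (0.38, SE 0.15, adjusted p = 0.445 by edgeR), and Dyrk1a, also a kinase (0.24, SE 0.12, adjusted p = 0.596). Of 20 genes of paraspeckle proteins, none passed by edgeR, 15 were higher and 5 lower, with a median of 0.125 and 2 at an unadjusted p under 0.05. These were Hnrnpa1 (0.42, SE 0.18, adjusted p = 0.52 by edgeR) and Tardbp, the gene of TDP-43 (0.24, SE 0.11, adjusted p = 0.531). Sfpq and Nono, on which paraspeckles depend, had log2 fold changes of -0.12 and -0.14 (adjusted p = 0.845 and 0.95 by edgeR). Of 15 genes that process or modify Malat1 and Neat1, among them subunits of RNase P and writers of N6-methyladenosine, 4 were higher and 11 lower, and none passed by edgeR or had an unadjusted p under 0.05, with Elac2 (-0.45) and Rpp40 (0.72) the nearest to it.

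Of 29 other long noncoding RNAs tested, 10 were higher and 19 lower, and their median change was -0.117 on the log2 scale. None passed by edgeR, and 3 had an unadjusted p under 0.05. Kcnq1ot1, an imprinted antisense RNA, stood at 475 ± 94.8 and 359.8 ± 111 CPM (SD, n = 5 each), a log2 fold change of -0.4 (SE 0.12, adjusted p = 0.19 by edgeR). Dleu2, a microRNA host, stood at 16 ± 2.37 and 25.4 ± 1.98 CPM, a log2 fold change of 0.67 (SE 0.18, adjusted p = 0.135 by edgeR), and its groups did not overlap. Of 14 other small nucleolar RNA host genes, 7 were higher and 7 lower and none passed by edgeR, with Snhg8 at 0.37 (SE 0.13, adjusted p = 0.346, groups not overlapping) and Snhg9 at -0.42 (SE 0.19, adjusted p = 0.545) the 2 at an unadjusted p under 0.05. Of 12 genes beside Malat1 and Neat1 and 9 beside Miat or Snhg11, none passed by edgeR and none had an unadjusted p under 0.05. The nearest to it were Sipa1 (-0.55) and Dpf2 (0.22) in the first of these lists, and Dhx35 (0.73) and Slc32a1 (-0.22) in the second. By DESeq2, too, 0 genes passed in the lists of neighbours, speckle, paraspeckle and RNA processing proteins, Miat partners, other long noncoding RNAs and small nucleolar RNA hosts.

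**Figure D4:**
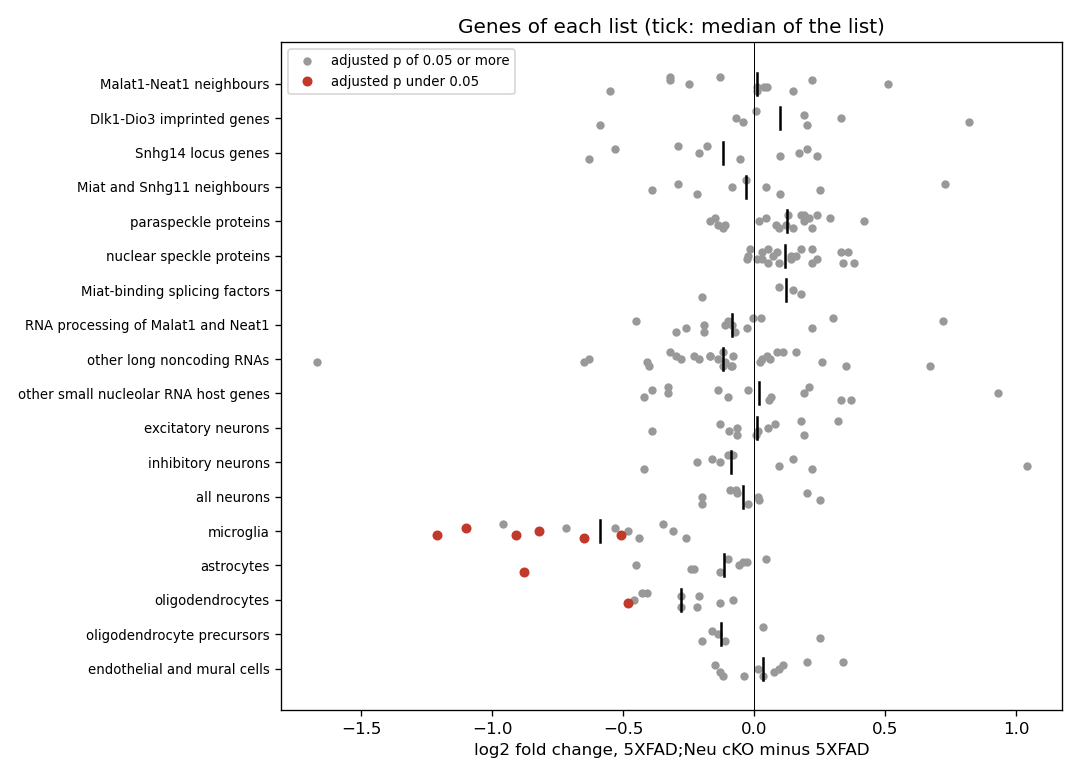
Log2 fold changes, libraries labelled 5XFAD;Neu cKO minus those labelled 5XFAD, of the genes in each list, with red points past an adjusted p of 0.05 by edgeR, grey points not past it and a black tick at each list's median. Red points stand in the microglia (6), astrocyte (1) and oligodendrocyte (1) lists alone.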

How the data were processed

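Cortical RNA of 10 mice was sequenced from QuantSeq 3′ libraries. The authors trimmed the reads, aligned them to GRCm39 with STAR 2.7.3a and used htseq-count on Ensembl genes. The deposited values are raw counts without any normalization. The submitters' processing notes name HTSeq 0.9.1; the strand setting is not given in the sources used here. Names and places came from GENCODE on the same build, in a later release, which named 52610 of 53700 identifiers.

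The quasi-likelihood test of edgeR 4.0.16 (in R 4.3.3) compared the groups, with TMM factors and no covariate. Only genes totalling more than 10 reads entered, and p-values were adjusted by Benjamini-Hochberg over 19268 genes, with a threshold of 0.05. CPM are counts over TMM-scaled library sizes, and correlations used log2 CPM with a prior count of 2. Reads on no gene entered neither sizes nor tests. Nothing in the labels says whether replicates were prepared separately beyond being separate samples, so p-values measure the spread between these samples. Alternatives were DESeq2 1.42.0, other scalings and filters, a robust fit, a replicate block, each library left out, and 2 settings added after seeing the data. The fits were tested on simulated data. The members and gene lists were chosen with earlier results of these data known. The genes named are all 8 members, Mylip and the 3 genes outside the members most like each member. Per list, the genes past the threshold or otherwise the 2 with the smallest p are named. Any further gene was chosen after its values were seen. Some genes that this rule covers are not named here.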

Additional observations from a re-analysis of the deposited data

Results flagged for a closer look

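Replicate 5 labelled 5XFAD stood apart for Meg3. Its gap in log2 CPM to the nearest of the other 4 libraries of its group was 0.779 of the group's range, above Dixon's critical value of 0.71 for 5 libraries. It was the 1 library past that value among 18 groups checked, and chance alone flags about 1 in 20 groups. This library also had the largest share of reads on no gene, 39.9%. Its share of counted reads on the 8 members, 2%, was the largest too, but Meg3 is a large part of that sum, so this is not a separate sign.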

How the results depend on the processing

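No member was past the adjusted threshold in the reported fit, nor with DESeq2, DESeq2's size factors, library totals only, filterByExpr, a robust fit, sizes without the members or without mitochondrial genes. 1 member, Malat1, was past it with no filter on low counts (0.27, adjusted p = 0.0114 by edgeR) and, in a fit chosen after seeing the data, without both libraries over 38% unassigned reads (0.41, adjusted p = 0.00456 by edgeR). With the replicate block Malat1 was also past it (0.29, adjusted p = 1.32e-05 by edgeR). Same-numbered libraries deviated together by r of -0.06 to 0.04 over 9595 genes, which gives no sign that the numbers pair the samples. The labels do not say whether they do. With a robust fit the adjusted p of Malat1 was 0.838. Leaving out each library in turn gave 0 to 1 members past the threshold.

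The count of genes past the threshold was 42 as reported, 73 with DESeq2, 103 without a filter, 112 with the replicate block, 22 with the mitochondrial set as a term, and 26 to 72 with each library left out. Leaving out each library in turn gave log2 fold changes of 0.18 to 0.42 for Malat1, -0.0037 to 0.18 for Rian, -0.049 to 0.17 for Mirg and -0.069 to 0.014 for Snhg14. The mitochondrial set as a term turned Malat1 to -0.061, Meg3 to -0.14, Rian to -0.026, Mirg to -0.13 and Snhg11 to -0.09, and library totals only turned Snhg14 to 0.05. Neat1 and Miat kept their direction under all 21 alternatives, at -0.36 to -0.18 and 0.067 to 0.38.

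The mean summed share of the members, 1.4% and 1.67% in the libraries labelled 5XFAD and 5XFAD;Neu cKO, was 1.83% and 2.11% of reads outside the mitochondrial chromosome and 0.851% and 0.959% without Malat1. With library totals only, r was 0.74 for Meg3 with Rian and 0.78 for Meg3 with Mirg, both then past the threshold (adjusted permutation p = 0.0145 and 0.0109, against 0.0829 and 0.0585 as reported), and 0.05 for Malat1 with Neat1, which was 0.12 with group means taken out, and r was 0.7 for Rian with Mirg without the 2 farthest libraries. The cause of these changes was not tested. With 121 to 246 reads per library on Neat1 and 103 to 224 on Mirg, counting error adds to their spread.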
